A study of Drosophila melanogaster with 4 samples.

Results

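The muscle structure genes described here are 33 of the 15340 genes in the deposited table, found by matching gene symbols to a list of 36 names. The list holds sarcomere proteins, proteins of muscle attachment, and enzymes and pumps of muscle calcium and energy supply, and the matching used symbols and no measured value. SERCA and Ca-P60A are 2 names of the same gene, which the table lists as Ca-P60A. The names tn and Msp300 matched no symbol; the table holds these genes under the older symbols abba and Msp-300, and their values are given below but are in none of the counts.

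The mutant larvae were Xbp1 ex79-/-, homozygous for an excision that removes the start codon, the region for the DNA-binding domain and the site of IRE1 splicing. The WT larvae were Xbp1+/+, from a line in which the same parent insertion, Xbp1 CB02061, had been excised precisely. The labels and the study's methods describe whole larvae of the second-instar stage at 48 h of age, and the stage was not tested here. RNA was extracted 2 times from each genotype, giving the libraries mutant 1, mutant 2, WT 1 and WT 2. The number of larvae in an extraction is not given in the sources used here, so the p-values measure the spread between extractions only. The comparison asks how transcript levels in the whole animal differ when Xbp1, a transcription factor of the unfolded protein response, is lost.

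A muscle fibre contracts when myosin of the thick filaments pulls on actin of the thin filaments. Tropomyosin and the troponin complex cover the thin filament and release it when calcium rises, and the calcium pump of the sarcoplasmic reticulum ends the contraction. The thin filaments are anchored in Z-discs, and giant titin-like proteins tie the thick filaments into the sarcomere, the repeating unit of the fibre. In the larva the body wall muscles are the main site of these proteins, and different actin and troponin C genes serve larval and adult muscles.

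The libraries held between 31416284 and 38601267 reads on genes, of which CR41602, annotated as a ribosomal RNA pseudogene, took 37.2 to 43.7%. Shares of reads are therefore given without CR41602, over totals of 18973661 to 23434025 reads. In these units 3 reads correspond to normalized counts between 2.69 and 3.62, a floor that covers counting error only. Xbp1 itself had 6087 and 5953 normalized counts in the mutant libraries, against 5521 and 7378 in the WT libraries. The groups overlapped, so the total count of Xbp1 gave no check of the labels, and the cause was not tested. The paper used qRT-PCR of Xbp1 to check that the samples of its qRT-PCR assay came from null larvae. The RNA of that assay was extracted with another reagent, and the paper states no such check for the sequenced libraries. The 7 fat body markers, larval storage proteins among them, took 39.7% and 46.9% of reads in the mutant libraries. In the WT libraries they took 41.0% and 47.7%, and they did not separate the groups.

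Sarcomere transcripts were scarce in all 4 libraries, although the label of the tissue is whole larvae. The 7 markers taken to define muscle (Mhc, Mlc1, Mlc2, Act57B, up, wupA and Tm2) summed to 573 and 717 normalized counts in the mutant libraries, against 329 and 431 in the WT libraries, at most 0.00298% of the reads of a library. None of the 7 was at 0 in any library. Mhc, the only muscle myosin heavy chain gene of the fly, had 192 and 258 normalized counts in the mutant libraries, against 160.2 and 194 in the WT libraries. Per length of exon, Mhc averaged 22.2 normalized counts per kb over the 4 libraries, whereas the median of 15056 genes with a known length was 38.5. In these samples, labelled as whole larvae, fewer muscle cells and less RNA per cell cannot be told apart, and the tissue content was not tested.

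The marker lists of other tissues stood at different levels. The 5 larval cuticle markers summed to 83.3 and 56.4 normalized counts in the mutant libraries, against 72.9 and 84.4 in the WT libraries. Among the 7 midgut markers, the unconventional myosin genes Myo31DF and Myo61F, with 112 and 103 normalized counts per kb on average, held most of the reads. Myo31DF had 624 and 618 normalized counts in the mutant libraries, against 329 and 363 in the WT libraries, while the trypsin gene alphaTry was at 0 in both mutant libraries and in WT 2, and had 3.6 normalized counts in WT 1. The 7 midgut markers together summed to 1256 and 1063 in the mutant libraries, against 646 and 739 in the WT libraries. Their sum separated the groups, as that of the sarcomere markers did, through Myo31DF and Myo61F. The groups overlapped for alphaTry, betaTry, epsilonTry and Amy-d, while Amy-p was higher in both mutant libraries with 3 and 9 reads. The part of the midgut markers in the values of the muscle genes was not tested. The 5 hemocyte markers summed to 18909 and 23723 in the mutant libraries, against 13181 and 22211 in the WT libraries. Most of this sum was Col4a1, with 16219 and 20590 in the mutant libraries, against 10711 and 18708 in the WT libraries. NimC1 was higher and Pxn lower in both mutant libraries, and the groups of Hml and eater overlapped. The 5 nervous system markers found, mostly Syt1, summed to 10126 and 10614 in the mutant libraries, against 8684 and 11219 in the WT libraries.

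**Figure D1:**
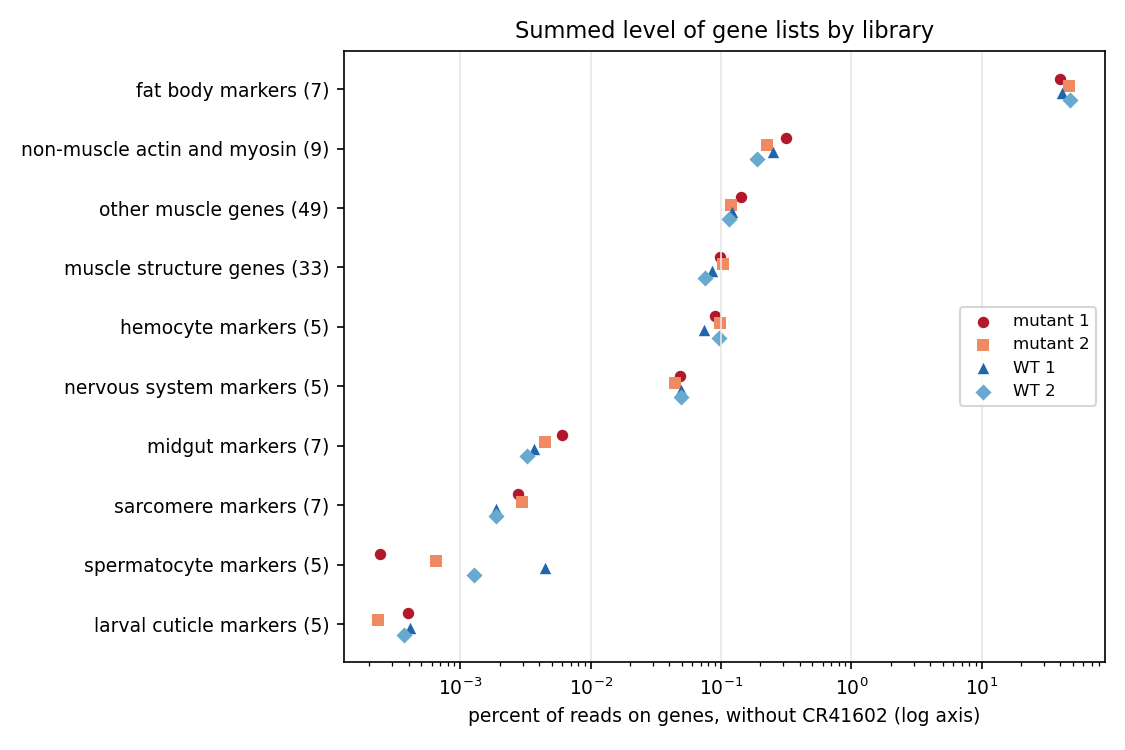
Summed reads of 10 gene lists as a percent of the reads on genes without CR41602, on a log axis, with 1 point per library and the number of genes in brackets. The fat body markers took between 39.7 and 47.7% of reads, while the 33 muscle structure genes stayed between 0.0758 and 0.103% and the 7 sarcomere markers between 0.00186 and 0.00298%.

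The 33 genes together took 0.0983% (95% Wilson interval 0.0970 to 0.0996) and 0.103% (0.102 to 0.105) of reads in the mutant libraries. In the WT libraries they took 0.0857% (0.0845 to 0.0870) and 0.0758% (0.0746 to 0.0771). These intervals cover counting error only and not the spread between extractions, and those of WT 1 and WT 2 did not overlap. The groups did not overlap, with a ratio of the means of 1.25 and an exact two-sided permutation p of 0.333, the smallest that 2 libraries against 2 can give. This order depended on bt and on the unit of the sum. bt held 40.5% and 41.9% of the members' reads in the mutant libraries, against 16.0% and 21.3% in the WT libraries. Without bt the share was 0.0584% and 0.0599% in the mutant libraries, against 0.0720% and 0.0597% in the WT libraries, so the ratio turned to 0.899 and the groups overlapped (exact permutation p = 0.667).

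Levels differed widely among the genes. Per kb of exon, 21 of the 33 lay below the median of all genes, and none was among the top 10% of genes, which began at 433 normalized counts per kb. The genes with the most reads were bt, Strn-Mlck, Ca-P60A and Tm1, which together held 65.8 to 79.9% of the members' reads. Per kb, Ca-P60A (374) and flr (317) were the highest of the members, followed by bt (222), Argk (188) and Tm1 (163). Several of these genes also serve cells other than muscle: Ca-P60A pumps calcium into the endoplasmic reticulum of every cell, flr promotes actin disassembly with cofilin, and Tm1 also encodes cytoplasmic tropomyosins.

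The non-muscle relatives of the same proteins stood far higher. Act5C, a cytoplasmic actin, had 34690 and 29009 normalized counts in the mutant libraries, against 19825 and 20718 in the WT libraries, and per kb it exceeded the 4 muscle actins together by 28.4 to 45.0 times. The non-muscle myosin heavy chain gene zip exceeded Mhc by 36.4 to 76.1 times per kb, and the light chain genes Mlc-c and sqh exceeded Mlc1 by 40.2 to 97.7 times and Mlc2 by 13.8 to 46.0 times. All 9 genes of the non-muscle actin and myosin list, which adds Act42A, the profilin gene chic, the cofilin gene tsr and the capping protein genes cpa and cpb, were among the top 10% of genes per kb.

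**Figure D2:**
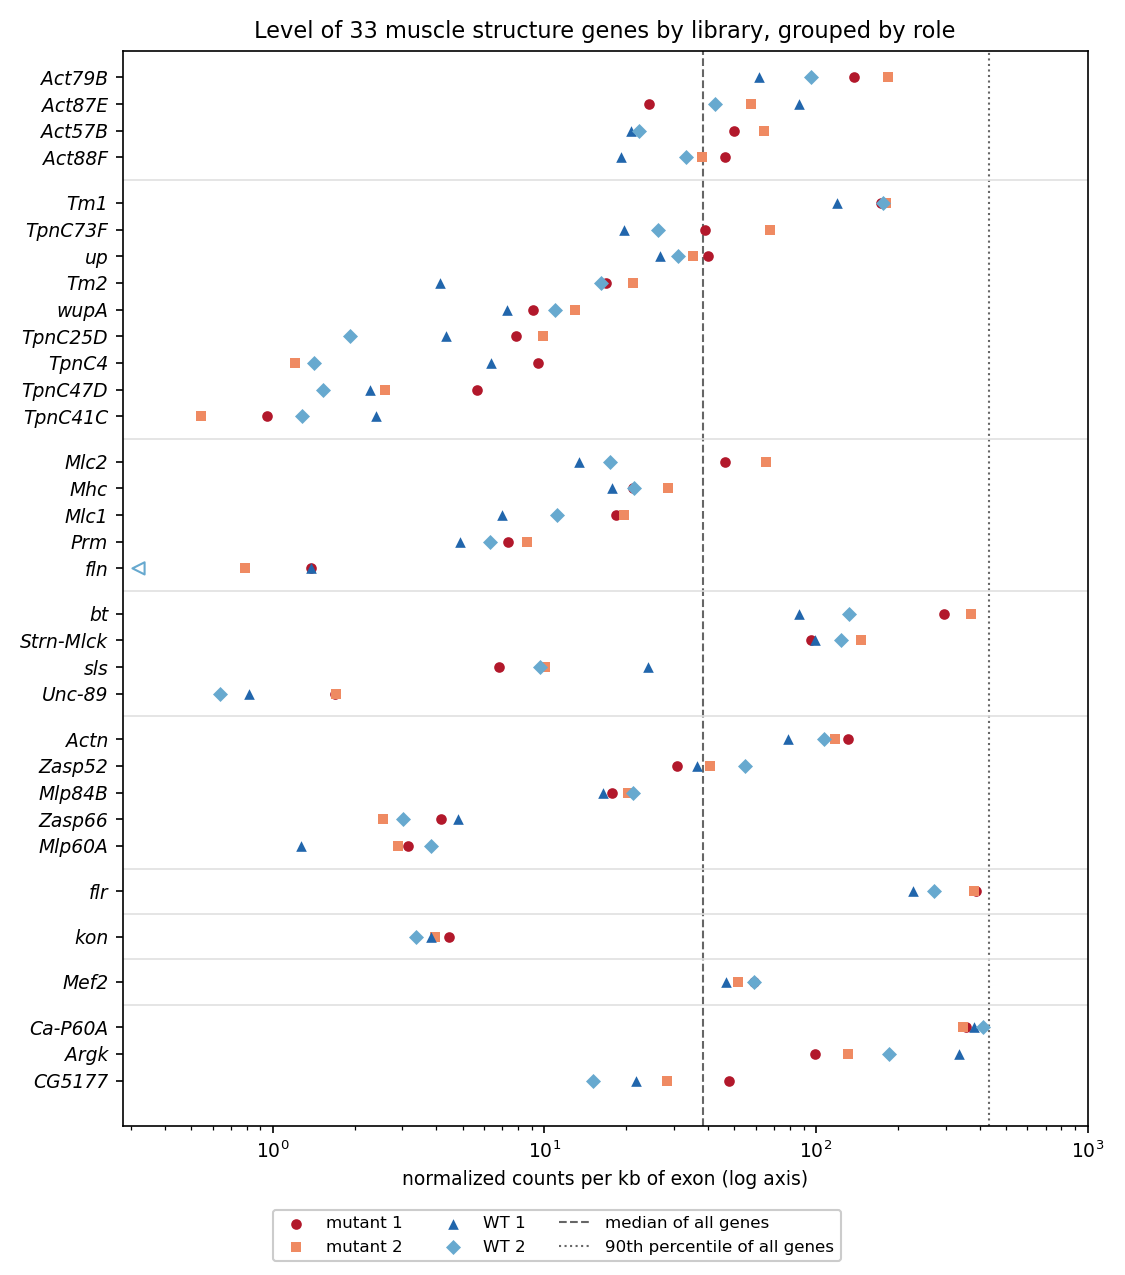
Normalized counts per kb of exon on a log axis for the 33 genes in each library, grouped by role from the actins at the top to the energy and calcium genes at the bottom. The open triangle marks fln in WT 2, which was at 0, and the dashed and dotted lines mark the median (38.5) and the 90th percentile (433) of 15056 genes; no gene reached the dotted line in its mean.

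Among the thick filament genes, Mlc2 differed most. This gene (FBgn0002773; chromosome 3R, 30171438 to 30174551 in dm6) encodes the regulatory light chain of muscle myosin. It had 106 and 150 normalized counts in the mutant libraries, against 30.6 and 39.8 in the WT libraries, so that both mutant libraries lay above both WT libraries. Its log2 fold change was 1.82 (standard error 0.38), which did not pass 0.05 in limma (adjusted p = 0.343 with Benjamini-Hochberg adjustment over 10500 genes) and did in DESeq2 on the recovered reads (adjusted p = 0.0395).

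The other thick filament genes were closer between the groups. Mlc1, the essential light chain, had 25.99 and 27.7 normalized counts in the mutant libraries, against 9.9 and 15.7 in the WT libraries. Prm, which encodes the paramyosin of the filament core, had 39.4 and 46.1 in the mutant libraries, against 26.1 and 33.8 in the WT libraries. Neither passed in either test, and for Mhc the groups overlapped, and the log2 fold change was 0.33 (standard error 0.28). fln encodes flightin of the adult flight muscle and had 2 and 1 reads in the mutant libraries, against 2 and 0 in the WT libraries, at or below the floor of 3 reads.

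The 4 muscle actin genes did not move as 1 group. Act57B (2R, 20944021 to 20946431), an actin of larval body wall muscle, had 86.0 and 111 normalized counts in the mutant libraries, against 36.0 and 38.6 in the WT libraries. Its log2 fold change was 1.37 (standard error 0.36), with an adjusted p of 0.347 in limma and 0.160 in DESeq2. Act87E, the other larval actin, had 48.4 and 114.8 in the mutant libraries, against 172 and 84.4 in the WT libraries, so that its groups overlapped and WT 1 was the highest library.

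The actins of adult muscles were detected as well. Act79B (3L, 21985210 to 21987190), an actin of adult tubular muscles, had 224 and 297 normalized counts in the mutant libraries, against 99.9 and 156 in the WT libraries, a log2 fold change of 1.04 (standard error 0.34). Act88F, the actin of indirect flight muscle, had 73.5 and 60.5 in the mutant libraries, against 30.6 and 53.1 in the WT libraries. Both genes had higher values in both mutant libraries, and neither passed in limma or DESeq2. Averaged over the libraries, the per-kb levels were 120.0 for Act79B, 52.7 for Act87E, 39.3 for Act57B and 34.1 for Act88F, and neighbours in this order overlapped in their ranges over the 4 libraries. The actin genes are close paralogs, so the counting could have lost or split reads between them, and their order is uncertain for that reason too.

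Of the tropomyosin and troponin genes, 5 of 9 reached the mean of 10 normalized counts required for the test. Tm1 had 1697 and 1772 normalized counts in the mutant libraries, against 1175 and 1733 in the WT libraries, and its groups overlapped. Tm2, the neighbouring tropomyosin gene, had 43.9 and 55.4 in the mutant libraries, against 10.8 and 42.2 in the WT libraries. Its log2 fold change of 1.16 (standard error 0.72) rested on WT 1, since it was 0.22 without that library. up, the troponin T gene, had 101 and 89.2 in the mutant libraries, against 67.5 and 78.4 in the WT libraries. wupA, the troponin I gene, had 17.9 and 25.6 in the mutant libraries, against 14.4 and 21.7 in the WT libraries, and its log2 fold change of 0.26 was -0.017 without WT 1.

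Only TpnC73F among the 5 troponin C genes was above that limit. This calcium sensor of larval muscle had 41.2 and 71.8 normalized counts in the mutant libraries, against 20.7 and 27.7 in the WT libraries, a log2 fold change of 1.15 (standard error 0.48). The other 4, TpnC47D, TpnC25D, TpnC41C and TpnC4, had between 1 and 12 reads in every library, and Mlp60A, the only other member below the limit apart from fln, had 4 to 10 reads. No fold change is given for these 6 genes.

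Among the giant sarcomere proteins, bt was higher in the mutant libraries and sls was highest in a WT library. bt (FBgn0005666; chromosome 4, 724400 to 776474) encodes projectin, which lies along the thick filament. It had 8322 and 10401 normalized counts in the mutant libraries, against 2429 and 3694 in the WT libraries. The groups were well apart, at 9361 ± 1469.9 and 3061 ± 894 (SD, n = 2 each), a fold of 3.06. The log2 fold change was 1.63 (standard error 0.27), with an adjusted p of 0.285 in limma, and it passed in DESeq2 on the recovered reads (adjusted p = 1.00e-04). With any 1 library left out, the log2 fold change lay between 1.33 and 1.94 and the adjusted p of limma between 0.0711 and 0.649.

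The level of bt did not follow that of Mhc or sls, the sarcomere genes it was set against. Some other sarcomere genes, such as Mlc2 and Act57B, were higher in both mutant libraries, as bt was. Per kb, bt exceeded Mhc by 14.0 and 13.01 times in the mutant libraries, and by 4.9 and 6.15 times in the WT libraries. It exceeded sls by 43.6 and 37.0 times in the mutant libraries, against 3.6 and 13.7 times in the WT libraries.

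sls (FBgn0086906; 3L, 2039681 to 2115611) encodes the titin-like protein between Z-disc and thick filament. It had 402 and 592 normalized counts in the mutant libraries, against 1422 and 569 in the WT libraries. WT 1 stood above the other libraries, and the groups overlapped. The log2 fold change of -0.88 (standard error 0.48) became -0.22 without WT 1. Strn-Mlck, a titin-like protein with a myosin light chain kinase domain, had 3130 and 4782 in the mutant libraries, against 3246 and 4038 in the WT libraries. Its groups overlapped, and its log2 fold change of 0.10 (standard error 0.27) became -0.058 when all libraries were brought to the same total. Unc-89, the obscurin gene of the M-line, had 22.4 and 22.6 in the mutant libraries, against 10.8 and 8.44 in the WT libraries, and the log2 fold change was 1.15 (standard error 0.53). Its mean in the WT libraries was 9.62, so it reached the limit of 10 only through the mutant libraries, where it was high.

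The 4 Z-disc genes tested lay between -0.33 and 0.43 on the log2 scale. Actn, the gene of alpha-actinin, which crosslinks thin filaments, had 690.0 and 618 normalized counts in the mutant libraries, against 414 and 564 in the WT libraries, a log2 fold change of 0.43 (standard error 0.24). For Zasp52, Zasp66 and Mlp84B, which encode PDZ and LIM domain proteins of the disc, the groups overlapped. Their log2 fold changes were -0.33, -0.20 and 0.03, and the last of these was -0.12 after rescaling to the same total. Exons of Actn share 265 bp with usp on the same strand, where reads of the genes cannot be told apart.

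Outside the sarcomere, flr had 910 and 895 normalized counts in the mutant libraries, against 531 and 638 in the WT libraries, with little spread within either group. Its log2 fold change was 0.63 (standard error 0.19), with an adjusted p of 0.347 in limma. kon, whose transmembrane product guides myotubes to their tendon cells, had 36.7 and 32.8 in the mutant libraries, against 31.5 and 27.7 in the WT libraries. Mef2, the transcription factor that switches on muscle genes, had 543 and 476 in the mutant libraries, against 429 and 543 in the WT libraries. Its groups overlapped, and its log2 fold change of 0.07 (standard error 0.22) became -0.079 after rescaling to the same total.

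In the last group, Argk and Ca-P60A were lower in both mutant libraries and CG5177 was higher. Argk (FBgn0000116; 3L, 9048781 to 9066027), the arginine kinase that buffers ATP in muscle and nerve, had 347 and 459 normalized counts in the mutant libraries, against 1175 and 650.0 in the WT libraries. Both mutant libraries lay below both WT libraries. The log2 fold change was -1.13 (standard error 0.35), with an adjusted p of 0.347 in limma and 0.0829 in DESeq2, and it was -0.70 without WT 1. Ca-P60A (2R, 23925077 to 23935884) had 2939 and 2873 in the mutant libraries, against 3145 and 3396 in the WT libraries, a log2 fold change of -0.17 (standard error 0.17). Its exons overlap CG2812 on the opposite strand over 1325 bp, and the strand setting of the counting is not given in the sources used here. CG5177 had 53.8 and 31.8 in the mutant libraries, against 24.3 and 16.9 in the WT libraries.

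Of the genes found under older symbols, Msp-300 was higher and abba lower in both mutant libraries. Msp-300, the nesprin that anchors nuclei in muscle, had 28657 and 27136 normalized counts in the mutant libraries, against 20286 and 24796 in the WT libraries, more than all 33 genes together in every library. Its log2 fold change did not pass in limma (adjusted p = 0.482) or DESeq2 (adjusted p = 0.577). abba, the current thin, a protein of the attachment between sarcomere and membrane, had 11.6 and 13.3 in the mutant libraries, against 36.0 and 27.7 in the WT libraries, with an adjusted p of 0.347 in limma and 0.475 in DESeq2.

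**Figure D3:**
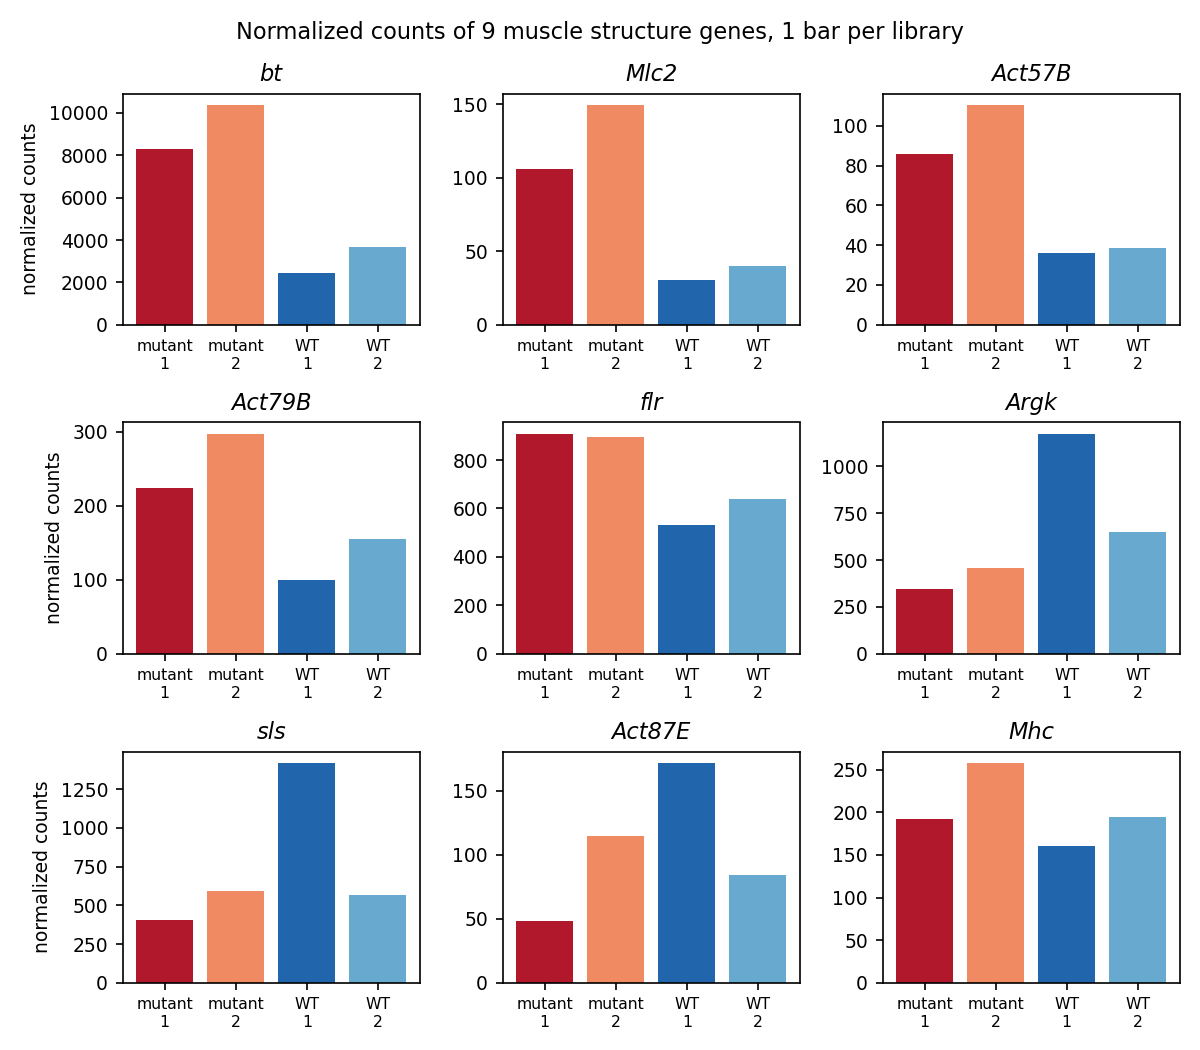
Normalized counts of 9 of the genes, 1 bar per library, each panel with its own axis from 0. bt, Mlc2, Act57B, Act79B and flr were higher in both mutant libraries, Argk was lower in both, sls and Act87E were highest in WT 1, and the groups of Mhc overlapped.

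Of the 33 genes, 27 passed the limit on the mean and entered the test, and none was called by limma in either direction, where the calls over all 10500 genes were 0.00952% higher and 0% lower. Over all genes limma called 1 higher and 0 lower, and after quantile normalization 12 higher and 4 lower. At an unadjusted p under 0.05, 5 of the 27 were higher (bt, Mlc2, Act57B, Act79B and flr) and 1 was lower (Argk), against 6.89% and 7.24% of all genes. edgeR also called none of the 27. DESeq2 on the recovered reads called 2 higher, bt and Mlc2, and 0 lower, where it called 1.7% and 1.36% of all genes, and it gave no adjusted p for Unc-89 and Zasp66.

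The genes leaned to higher values in the mutant libraries. Their median log2 fold change was 0.38 over the 27, while that of all genes was -0.03, and 21 of the 27 were above 0, against 47.8% of all genes. Unc-89 and Zasp66 entered the test through 1 group only, Unc-89 through the mutant libraries and Zasp66 through the WT libraries. With no filter the median was 0.38 over all 33. Without WT 1 the median of the 27 was 0.22. Values of the groups did not overlap for 15 of the 27 with the mutant libraries higher and for 2 with them lower, where 26.2% and 27.9% of all genes did so. Including the 6 genes below the limit, 17 of 33 were higher, 3 lower and 13 overlapped, and no share over all genes without the limit was computed. The added genes had few reads. TpnC47D had 2 reads in both mutant 2 and WT 1, and TpnC41C had 2 in both mutant 1 and WT 2. The order of these genes thus rested on the scaling. WT 1 was the lowest library for 18 of the 33 genes, against 34.6% of all genes, and mutant 2 was the highest for 14, against 15.6%. The highest library was mutant 1 for 9, WT 1 for 6 and WT 2 for 4 of the 33, where the shares of all genes were 29.8%, 38.7% and 16%. Among the 13 genes with a mean of 100 or more, a limit chosen after the data were seen, the median was 0.10.

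**Figure D4:**
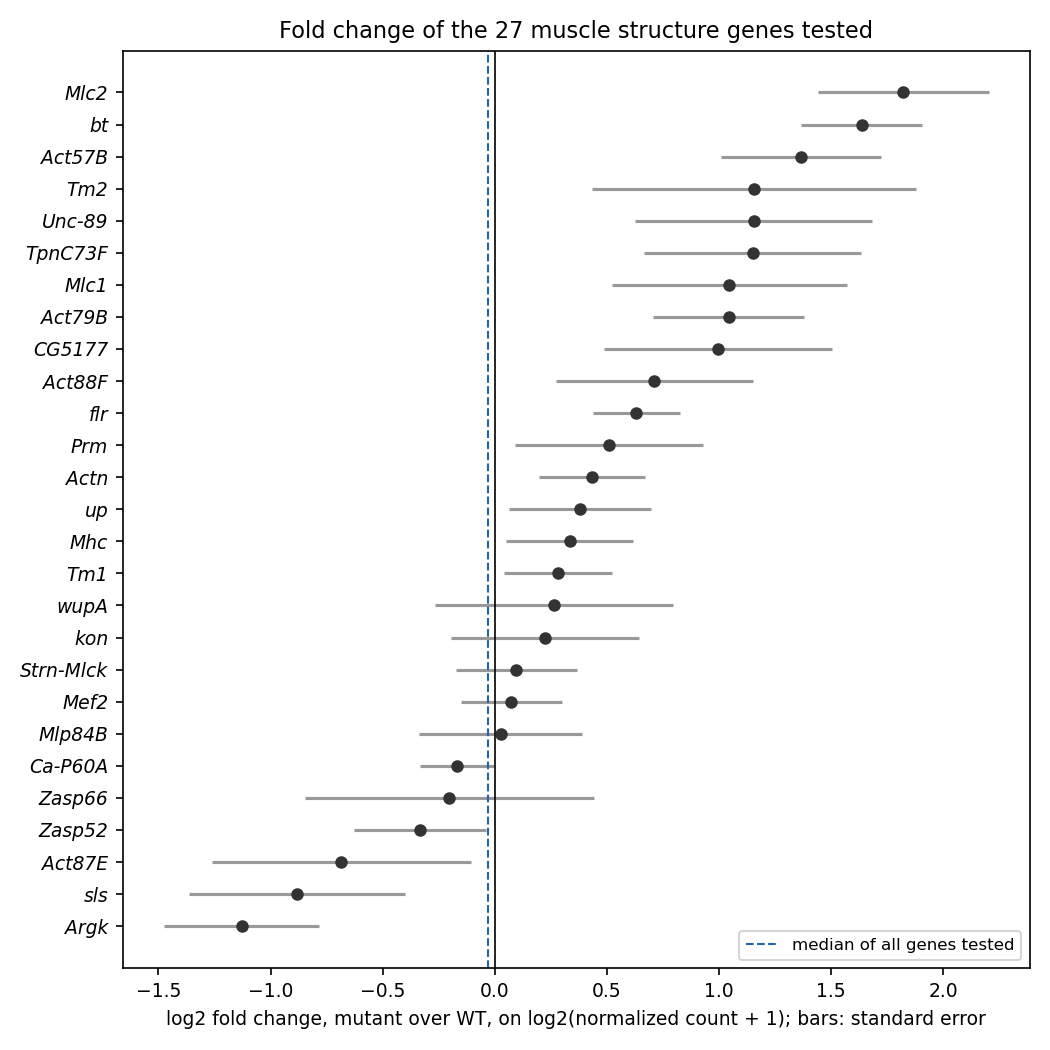
Log2 fold change, mutant libraries over WT libraries, with its standard error, for the 27 genes tested, from highest to lowest. The values run between -1.13 for Argk and 1.82 for Mlc2 with a median of 0.38, and the dashed line marks the median of all genes tested (-0.03).

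WT 1 also stood apart in markers of another tissue. The 5 spermatocyte markers were aly, can, sa, mia and comr. They summed to 50.2 and 156 normalized counts in the mutant libraries, against 783 and 288 in the WT libraries. All 5 were lower in both mutant libraries, as 27.9% of all genes tested were, and none was at 0. sls, Argk and Act87E were highest in the same library, and the part of these markers in that was not tested.

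Further muscle genes that the list of names leaves out were measured in the same way. Of 49 such genes, 33 were tested, and limma called none higher and none lower, with 3 higher and 0 lower at an unadjusted p under 0.05, where 6.89% and 7.24% of all genes were. Their median log2 fold change was 0.35, or 0.20 without WT 1 and 0.31 over all 49 with no filter, and 24 were above 0, against 47.8% of all genes. The highest of those tested were GluRIIA, a glutamate receptor subunit of the neuromuscular junction, at 1.51 (standard error 0.80), and CG1674 at 1.25 (standard error 0.62). GluRIIA had 10.8 and 20.5 normalized counts in the mutant libraries, against 8.1 and 2.41 in the WT libraries, with 2 reads in WT 2. Both genes reached the limit on the mean only through the mutant libraries, where they were high, so their rank is no independent result. The lowest were Ca-alpha1D, a voltage-gated calcium channel, at -1.59 (standard error 0.73), and Dys, the dystrophin gene, at -0.49 (standard error 0.21). Ca-alpha1D had 27.8 and 57.4 normalized counts in the mutant libraries, against 232 and 63.9 in the WT libraries, with WT 1 again the highest.

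By role, the 10 integrin attachment genes, which link the fibre ends to tendon cells and are used by other tissues too, had a median log2 fold change of 0.36, with 9 of 10 above 0. The 6 calcium handling genes tested had a median of -0.36. Only 1 of the 5 neuromuscular receptor genes reached a mean of 10 normalized counts, and the 5 summed to 24.2 and 30.8 in the mutant libraries, against 33.3 and 14.5 in the WT libraries. The 9 non-muscle actin and myosin genes had a median of 0.33. Within that list Act5C was at 0.65 (standard error 0.22) and sqh at 0.60 (standard error 0.17), and Mlc-c, chic, cpb, cpa, zip and tsr were at 0.53, 0.48, 0.33, 0.20, 0.09 and 0.07. Act42A was at -0.53 (standard error 0.31), and limma called none of the 9.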

How the data were processed

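RNA of whole larvae was sequenced by the authors as 50 nt pairs from stranded libraries depleted of ribosomal RNA. Per the submitters' processing notes and the paper's methods, they aligned the reads to dm6 with TopHat2 2.1.1, counted them per gene with HTSeq 0.6.1 and scaled the counts by DESeq2 size factors. The signal deposited by the authors is thus a normalized count, a count over the factor of its library. All values (100%, within 0.01 reads) were whole multiples of 1 step, so reads were recovered; HTSeq's counting mode is not given in the sources used here. The file held no other columns.

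Groups were compared with limma (version 3.58.1, R 4.3.3; trended eBayes) on log2(normalized count + 1) for the 10500 genes whose mean reached 10, with Benjamini-Hochberg adjustment over all of them and a threshold of 0.05. For genes with few counts this scale understates the fold change. DESeq2 (1.42.0) and edgeR (4.0.16, quasi-likelihood) on the recovered reads were alternatives, as were other pseudocounts, filters and scalings, a replicate block and each library left out. The tests were tested on simulated data. Exon lengths and coordinates came from Ensembl release 115 on the same assembly; of the names, 11817 matched as they stand, 3239 by an older symbol, and 284 did not match.

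The members and lists were chosen with earlier results of these data known. Every member is named; of the other muscle genes, those past the threshold or else the 2 highest and 2 lowest were named, with all 9 non-muscle genes and the sums of the marker lists. The single markers and the integrin and receptor groups described were chosen after their values were seen. Sequences were not used here.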

Additional observations from a re-analysis of the deposited data

How the results depend on the processing

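No call of limma on the muscle structure genes appeared under other pseudocounts, filters or scalings, or with any 1 library left out. DESeq2 called 2 of them higher, and a crossed replicate pairing, chosen after the data were seen, called 3 higher and 1 lower (390 and 1410 over all genes). Over all genes limma called 1 higher and 0 lower. The count higher was 3 with no filter, 2 at the same total, 12 after quantile normalization (4 lower), 0 when eBayes used no trend (680 before adjustment at p under 0.05), and 179 in DESeq2 (143 lower). It ranged between 0 and 39 with 1 library left out (0 to 131 lower), the highest without mutant 2. With the replicate block limma called 0 genes (500 higher and 361 lower at an unadjusted p under 0.05). Deviations of same-numbered libraries correlated at -0.44 across genes. The fat body markers took close shares in same-numbered libraries, at 39.7% in mutant 1 and 41.0% in WT 1. They took 46.9% in mutant 2 and 47.7% in WT 2. Whether same-numbered libraries share more than a number was not tested. The median log2 fold change of all genes was -0.18 at the same total and -0.03 as deposited.

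The median of the muscle structure genes was 0.59 after quantile normalization, 0.10 for means of 100 or more, and 0.22 to 0.56 with 1 library left out, lowest without WT 1. That of the further muscle genes was 0.19 at the same total and 0.20 to 0.50 with 1 library left out. The log2 ratio of the summed share was 0.054 per kb of exon and -0.15 without bt. Strn-Mlck turned to -0.058, Mlp84B to -0.12 and Mef2 to -0.079 at the same total, and Strn-Mlck to -0.077 after quantile normalization. With 1 library left out the ranges were -0.017 to 0.54 for wupA, -0.21 to 0.40 for Strn-Mlck, -0.52 to 0.11 for Zasp66, -0.16 to 0.21 for Mlp84B and -0.094 to 0.24 for Mef2. The cause of these changes was not tested. A lone library in a group was assumed to vary like the other group.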

Other observations

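Markers of the nervous system differed widely in level. Syt1, the calcium sensor of synaptic vesicles, had 9437 and 9937 normalized counts in the mutant libraries, against 8134 and 10644 in the WT libraries. For elav the values were 230 and 165 in the mutant libraries, against 69.3 and 134 in the WT libraries. For Syx1A they were 437 and 460 in the mutant libraries, against 384 and 408 in the WT libraries. elav and Syx1A were higher in both mutant libraries, while the groups of Syt1, brp and Rdl overlapped. brp, a protein of the presynaptic active zone, had only 16.1 and 35.9 in the mutant libraries, against 89.1 and 31.4 in the WT libraries, and Rdl, a GABA receptor gene, had 5.38 and 15.4 in the mutant libraries, against 7.2 and 2.41 in the WT libraries. Among the further sarcomere genes, Chd64, a calponin gene, was the only one in the top 10% of genes per kb, with 7576 and 7314 normalized counts in the mutant libraries, against 4855 and 6486 in the WT libraries.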
